A study of Homo sapiens with 6 samples.

Results

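BIRC3 encodes cIAP2, a member of the inhibitor of apoptosis family. It is represented here by the 6 probe sets that carry its name in the authors' deposited table of listed differences, accession NM_001165, out of 2122 probe sets in that table. The table lists 0.271% of all probe sets as higher and 0.557% as lower in cells with a short hairpin RNA (shRNA) against ERRα. They lie in an unbroken run of 10 consecutive probe set identifiers, 7943414 to 7943423, out of 256180 probe sets used on the arrays. The other 4 probe sets of the run carry no gene name and are not known to belong to BIRC3. All 10 had a higher mean with the shRNA against ERRα than with the scrambled shRNA, and the 6 named ones were 3.78-fold to 7.49-fold higher. They were chosen by that same difference, through the fold and the p-value of the authors' comparison, so their folds and their separation are a description of the arrays and were not tested.

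The cells were HCT116, an established human colon carcinoma line, grown in medium with 10% serum. One group received a lentivirus labelled shscrambled and the other a lentivirus labelled shERRalpha, which targets ERRα, the product of ESRRA, a nuclear receptor best known for switching on mitochondrial genes. Infection lasted 48 h and was followed by 48 h of puromycin in both groups. Each group has 3 arrays labelled as biological replicates, hybridised with total RNA on Affymetrix whole-transcript arrays. The labels do not say whether replicates came from separate infections or how many hairpins were used, so the spread between arrays may be partly technical and effects of the hairpin other than loss of ERRα cannot be told apart from it.

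cIAP2 carries BIR domains, which bind other proteins of the death machinery, and a RING domain, which makes it a ubiquitin ligase. It is recruited through TRAF2 to the TNF receptor complex, where it ubiquitinates RIPK1 and so favours NF-κB signalling over cell death. With its close relative cIAP1, the product of BIRC2, it also keeps the kinase NIK at a low level and thereby holds back the non-canonical NF-κB pathway. The gene is itself a textbook target of NF-κB. In lymphomas of mucosa-associated tissue it is known as the fusion partner of MALT1.

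The 250 bases before the RefSeq start of BIRC3 are shown because the gene is known for NF-κB sites there and because the hairpin targets a receptor that binds DNA. They lie at chr11:102317234-102317483 of GRCh38.p14, on the plus strand, and are printed 5′ to 3′ with matches to the NF-κB consensus in capitals.
BIRC3: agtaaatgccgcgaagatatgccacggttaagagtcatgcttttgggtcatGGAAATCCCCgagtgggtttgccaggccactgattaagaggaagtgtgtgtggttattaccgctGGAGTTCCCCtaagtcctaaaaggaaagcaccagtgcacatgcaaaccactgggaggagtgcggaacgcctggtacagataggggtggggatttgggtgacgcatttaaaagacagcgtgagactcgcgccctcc
Both strands were searched. The window held 2 matches to the NF-κB consensus, GGAAATCCCC and GGAGTTCCCC, both in the minus-strand reading of the consensus and not overlapping each other. Of 35116 RefSeq promoter windows of the same length, 9.96% held at least 1 such match and 1.72% at least 2. The ERR response element, searched as TNAAGGTCA, had 0 matches here and at least 1 in 0.854% of the windows. The shorter nuclear receptor core AGGTCA, which is contained in it, had 0 matches here and at least 1 in 12.1% of the windows. These are matches of letters in a short window, and no binding was measured.

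ESRRA, the target of the hairpin, was lower on every shERRα array by the median of its 2 listed probe sets. That median was 5.08 ± 0.21 in shscrambled and 2.38 ± 0.20, near background, in shERRα (log2 units, SD, n = 3 each). These probe sets were listed for that difference too. Over the run of 6 probe sets that holds them, the median differed by -1.84 log2 units (SE 0.42). Array medians lay between 4.28 and 4.43 log2 units, and precision is set by there being 3 arrays a group. The array of shERRα replicate 1 was unlike the rest, with correlations across probe sets of 0.867 to 0.877 with the other arrays, against 0.933 to 0.947 among those others. To gauge how often a gene was listed, runs can stand for genes: of the 19182 runs with 3 or more probe sets, 2.86% held a probe set listed as higher and 5.12% one listed as lower. Of the epithelial markers chosen for HCT116, 2 of 12 were listed, CDH1 (E-cadherin, 7.69 against 5.63 log2 units) and CLDN7 (8.42 against 7.19), both lower in shERRα. Of the leukocyte markers 1 of 9 was listed, ITGAM, at 1.64 against 4.23 log2 units on 1 probe set in a run with a median change of 0.27. Of the fibroblast and endothelial markers 3 of 10 were listed at 1 probe set each, COL3A1 and KDR higher and COL1A2 lower. The other markers carry no name in the files, so their levels and the part of other cells in the BIRC3 difference were not tested.

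Values are expression on a log2 scale normalised with RMA, where 1 unit is a 2-fold difference. Over the 6 named probe sets, the median per array was 4.92, 5.32 and 4.33 log2 units on shscrambled replicates 1, 2 and 3, and 7.14, 7.58 and 7.35 on shERRα replicates 1, 2 and 3. The groups did not overlap: the lowest shERRα array lay 1.81 log2 units above the highest shscrambled array. The group means were 4.86 ± 0.50 (SD, n = 3) and 7.36 ± 0.22 (SD, n = 3), a log2 difference of 2.50 (SE 0.32) or 5.65-fold. The 9 differences between a shERRα and a shscrambled array ranged from 1.81 to 3.25 log2 units. Without shERRα replicate 1, the array that stood apart, the log2 difference was 2.61 (SE 0.38). In bulk RNA, more cells that express BIRC3 and more BIRC3 RNA per cell cannot be told apart.

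Each named probe set is given here on the log2 scale, in identifier order. Probe set 7943415 read 5.29, 5.66 and 4.33 on the shscrambled arrays and 8.13, 8.20 and 7.67 on the shERRα arrays. Its log2 difference of 2.90 (SE 0.43), or 7.49-fold, was the largest of the 6, and its groups lay 2.01 log2 units apart at their nearest arrays, the widest gap in the run. Probe set 7943417 read 6.67, 7.30 and 6.44 against 9.28, 9.59 and 9.03. It differed by 2.50 (SE 0.30), with every shERRα array at least 1.74 log2 units above every control array. Probe set 7943418 read 3.56, 4.98 and 3.43 against 6.64, 6.97 and 7.03. Its control arrays were the most scattered of the named probe sets, with shscrambled replicate 2 well above the other two, and its log2 difference of 2.89 had the largest SE among them, 0.51.

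Probe set 7943419 read 6.02, 6.25 and 5.60 on the shscrambled arrays and 7.64, 8.21 and 7.78 on the shERRα arrays. Its difference of 1.92 log2 units (SE 0.26), or 3.78-fold, was the smallest of the 6. Probe set 7943420 read 4.56, 4.51 and 4.33 against 6.58, 6.24 and 6.70. Its control replicates lay closest together, and its difference of 2.04 had the smallest SE, 0.16. Probe set 7943421 read 1.41, 2.70 and 1.72 against 3.62, 4.13 and 3.90. The control mean of 1.94 lay under 2.41, the 25th percentile of all probe set means, so the control signal was near background and the fold of 3.85 is not exact. In all 6 every shERRα array lay above every control array, as in 5.69% of all probe sets.

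**Figure D1:**
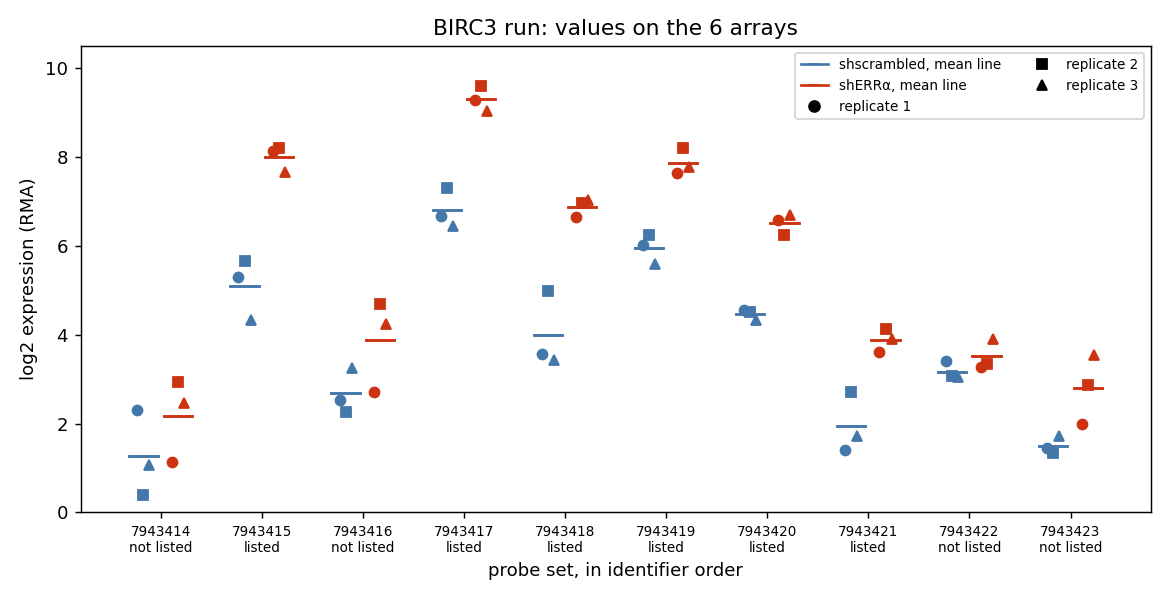
Log2 expression (vertical axis) of the 10 probe sets of the run (horizontal axis, in identifier order) on the 3 shscrambled arrays (blue) and the 3 shERRα arrays (red), with marker shape for the replicate number and a line at each group mean. In the 6 listed probe sets all red points lie above all blue points, whereas the groups overlap in 3 of the 4 that were not listed.

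The arrays within a group kept a partly shared order across the named probe sets. Among the controls, shscrambled replicate 2 was the highest array in 5 of the 6 and replicate 3 the lowest in 5 of the 6. In shERRα, replicate 2 was the highest in 4 of the 6 and replicate 3 in the other two, while replicate 1 was the highest in 0. The SD was larger among the controls than in shERRα for 5 of the 6, the exception being 7943420. The range over the 3 control arrays went from 0.23 to 1.55 log2 units by probe set, and over the 3 shERRα arrays from 0.39 to 0.57.

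The 4 probe sets of the run without a name differed less. Probe set 7943414, at the start of the run, read 2.31, 0.40 and 1.06 on the shscrambled arrays and 1.13, 2.94 and 2.46 on the shERRα arrays. The groups overlapped, with shERRα replicate 1 below shscrambled replicate 1, and the control mean of 1.26 was near background. The difference of 0.93 log2 units (SE 0.78) was close to its own error. It was 0.50 without shscrambled replicate 2 and 0.54 without shERRα replicate 2, and 1.45 without replicate 1 of either group. Probe set 7943416, which lies between named ones, read 2.53, 2.26 and 3.24 against 2.70, 4.68 and 4.25. Replicates 2 and 3 of shERRα stood above all controls while shERRα replicate 1 did not, and the difference was 1.20 (SE 0.67). It was 0.80 without shERRα replicate 2 and 1.78 without shERRα replicate 1. Probe set 7943422 read 3.41, 3.07 and 3.05 against 3.27, 3.34 and 3.91. Its groups overlapped and its difference of 0.33 (SE 0.23) was the smallest of the run. That difference was 0.13 without shERRα replicate 3 and 0.45 without shERRα replicate 1. Probe set 7943423, the last, read 1.45, 1.33 and 1.73 against 1.99, 2.87 and 3.54. It was the only unnamed one whose groups did not overlap, by a gap of 0.26 log2 units, with a control mean of 1.50 that was near background. Its difference was 1.30 (SE 0.465), with 0.93 without shERRα replicate 3 and 1.70 without shERRα replicate 1.

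In all 4 unnamed probe sets shERRα replicate 1 was the lowest of the shERRα arrays, against 3 of the 6 named ones. The p-value behind the naming depends on the spread within groups, so this contrast is partly set by the listing. The median per array of the unnamed ones differed by 0.87 log2 units (SE 0.45), with groups that overlapped. Their single differences lay between 0.33 and 1.30, and those of the named probe sets between 1.92 and 2.90, but the named ones were selected for size. The rule of the authors' deposited table, as its entries show, combined a 2-fold minimum difference with a p under 0.01 before adjustment. Just inside it lay 7943421, at a fold of 3.85 and a p-value of 0.00948 in the authors' deposited table. The nearest to it among the others was 7943423, well outside, at a fold of 2.46 and a p-value of 0.0492 computed in the same way.

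**Figure D2:**
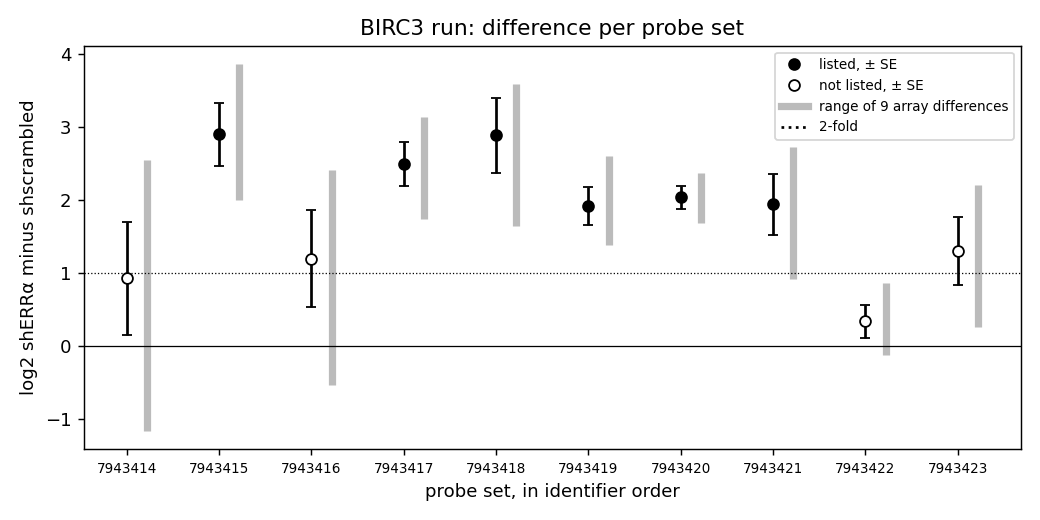
Log2 difference of the group means, shERRα minus shscrambled (vertical axis), for the 10 probe sets of the run (horizontal axis), with the SE as whiskers; filled points were listed, open points were not, grey bars span the 9 differences between single arrays and the dotted line marks 2-fold. The listed probe sets lie between 1.92 and 2.90, and grey bars reach below 0 for 7943414, 7943416 and 7943422.

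Over all 10 probe sets the median per array was 3.48, 3.79 and 3.34 log2 units on the shscrambled arrays and 5.10, 5.46 and 5.47 on the shERRα arrays. The groups did not overlap and lay 1.31 log2 units apart at their nearest arrays. The log2 difference was 1.81 (SE 0.18), or 3.50-fold, and 1.93 (SE 0.17) without shERRα replicate 1. Of the 10 probe sets, 6 were past the rule as higher in shERRα, where 0.271% of all probe sets were, against 0.557% past it as lower. In 7 of the 10 every shERRα array lay above every shscrambled array, where 5.69% of all probe sets did so. The run was chosen through this contrast, so nothing is read from these shares. Over all probe sets the median log2 difference was -0.0028, and over 19182 runs of at least 3 probe sets -0.0018.

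Among those 19182 runs, 4 had a larger median difference in the direction of higher in shERRα than the run of BIRC3. The groups did not overlap for its median, as was so for 6.66% of the runs in that direction. At least 6 probe sets listed as higher were found in 8 runs. The run of BIRC3 was chosen through this contrast, so nothing is read from its rank or from these shares. In limma with Benjamini-Hochberg adjustment, 0 of 256180 probe sets were called higher at an adjusted p under 0.05. The smallest limma adjusted p over all probe sets was 0.475. At an unadjusted p under 0.05, 6961, or 2.72%, were higher, about the share that this cut gives in a single direction without any difference. The equal-variance test behind the rule gave 695 higher and 1427 lower. No BIRC3 probe set was thus called by limma after adjustment.

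**Figure D3:**
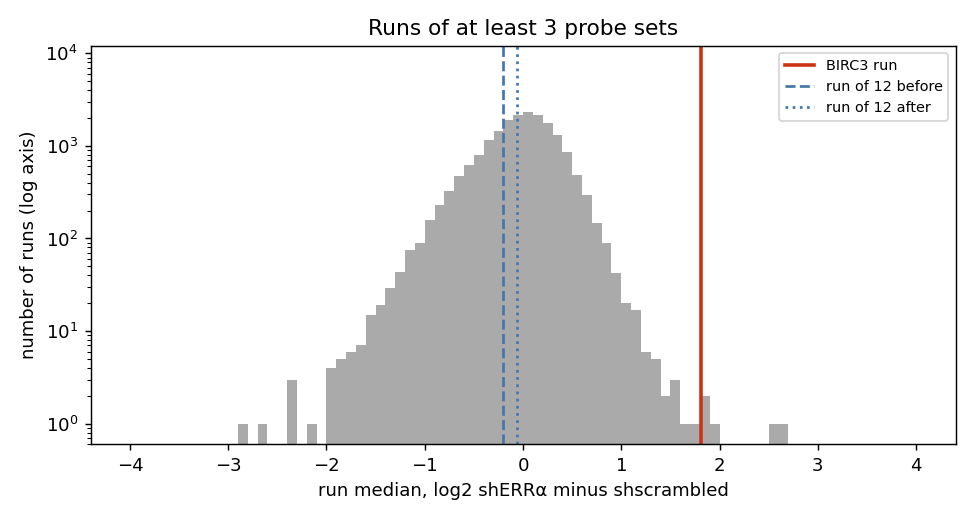
Number of runs of at least 3 consecutive probe sets (vertical log axis) by the log2 difference of the run median, shERRα minus shscrambled (horizontal axis, bins of 0.1). The run of BIRC3 (red line), which was chosen through this difference, lies at 1.81 in the upper tail. The runs of 12 probe sets before and after it (blue lines) lie at -0.20 and -0.06.

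The neighbouring runs in identifier order had median differences near 0. The run of 12 probe sets before BIRC3, 7943399 to 7943410, had a median log2 difference of -0.20 (SE 0.25), and the run of 12 after it, 7943425 to 7943436, of -0.06 (SE 0.25). Single probe sets differed by -0.74 to 0.32 log2 units in the run before and by -0.51 to 1.13 in the run after. Both runs had 0 listed probe sets and 0 in which every shERRα array lay above every control array. In the run after, 5 of 12 probe sets had every shERRα array below every control array, as did 8.37% of all probe sets. The nearest probe sets outside a run were 7943412, just before BIRC3, at -0.10 (SE 0.30) and 7943438, after the later run, at -0.03 (SE 0.07). None of these runs carries a gene name in the files. In RefSeq the protein-coding genes next to BIRC3 are YAP1 and BIRC2, and the authors' deposited table lists neither.

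Leaving out 1 array at a time kept the direction of BIRC3, and between 3 and 6 of its named probe sets stayed past the rule. The median of the named probe sets differed by 2.23 log2 units (SE 0.22) without shscrambled replicate 3, the control with the lowest values, and by 2.73 (SE 0.28) without shscrambled replicate 2, the control with the highest. The direction is fixed by the choice of probe sets and by groups that do not overlap, so it says nothing about stability. Of the 6 named probe sets, 3 stayed past the rule without shscrambled replicate 1, without shERRα replicate 1 and without shERRα replicate 2, and 4 without replicate 3 of either group. All 6 did so without shscrambled replicate 2. Quantile normalisation gave 2.57 (SE 0.29) and centring of the arrays on their medians 2.56 (SE 0.30), and all 6 passed the rule under both.

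**Figure D4:**
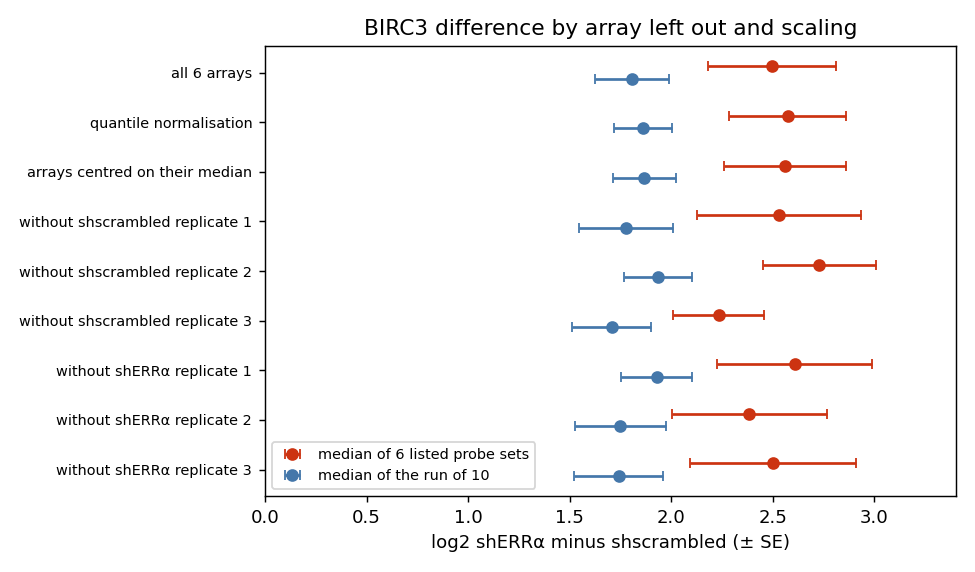
Log2 difference, shERRα minus shscrambled (horizontal axis, with SE), of the median of the 6 listed probe sets (red) and of the median of the run of 10 (blue), for all arrays, 2 other scalings and each array left out (vertical axis). The red values lie between 2.23 and 2.73 and the blue values between 1.71 and 1.94.

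Genes that work with cIAP2 were looked up in the authors' deposited table through 7 lists with 109 members. Only listed probe sets carry names, so an unlisted member has no value here and may or may not have differed. Of the 109 members, 1 was listed higher and 2 lower, each by 1 probe set, beside 2.86% of runs with a probe set listed higher and 5.12% with one listed lower. At such shares a count of 0 in a list this short says little. The inhibitor of apoptosis family and its antagonists, among them BIRC2, XIAP, BIRC5 and the cIAP antagonist DIABLO, had 0 of 9 members listed. Also at 0 were the NF-κB subunits, inhibitors and kinases (0 of 14), the textbook NF-κB target genes (0 of 25), which include CXCL8, ICAM1 and SOD2, and the BCL2 family (0 of 14).

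In the TNF receptor complex and linear ubiquitin list, 1 of 21 was listed, RNF31, which encodes HOIP, the catalytic subunit of the linear ubiquitin ligase recruited by the cIAPs. Its probe set read 2.67, 2.21 and 2.87 log2 units on the shscrambled arrays and 1.54, 1.26 and 1.54 on the shERRα arrays. The groups did not overlap and it was 2.20-fold lower (log2 difference -1.14, SE 0.22), but its shERRα mean was near background and its run of 26 had a median difference of -0.19 (SE 0.13). Among receptors and ligands of the non-canonical pathway, 1 of 9 was listed, TNFSF11, which encodes the cytokine RANKL. It read 3.02, 2.87 and 3.63 against 4.56, 4.44 and 4.42, which is 2.47-fold higher, in a run of 14 with a median difference of -0.07 (SE 0.23).

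Among caspases and death receptors, 1 of 17 was listed, CASP10, an initiator caspase of death receptor signalling. Its probe set read 2.87, 4.03 and 2.17 log2 units on the shscrambled arrays and 0.08, 0.66 and 0.38 on the shERRα arrays. The groups did not overlap, with the shERRα arrays all near background, so the fold is not exact. Its run of 15 had a median difference of 0.05 (SE 0.37). For RNF31, TNFSF11 and CASP10 the listing thus rested on a single probe set of a run whose median difference was within -0.19 to 0.05.

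The genes whose pattern over the 6 arrays was nearest to BIRC3 were sought among 119 other genes, those with 3 or more distinct probe sets listed. Each gene's listed median per array was taken as its log2 difference from the control mean, and likeness was the root mean square distance to BIRC3 over the 6 arrays. The median distance was 2.74 log2 units. The nearest was L3MBTL4, a gene of the malignant brain tumour domain family, at a distance of 0.41. It read 1.38, 1.68 and 0.60 on the shscrambled arrays and 4.43, 3.75 and 3.48 on the shERRα arrays. Its shscrambled arrays had the order of those of BIRC3, replicate 2 highest and replicate 3 lowest, but its controls were near background and its run of 22 had a median difference of 0.34 (SE 0.32).

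SGK1, a kinase induced by serum and glucocorticoids, followed at 0.59, with 4.44, 4.55 and 4.50 against 6.28, 6.32 and 6.25. Its arrays lay closer together within each group than those of BIRC3, and its log2 difference was 1.79 (SE 0.04). VCAN, which encodes the matrix proteoglycan versican, followed at 0.60, XRCC4, the partner of DNA ligase IV in end joining, at 0.62 and the carboxypeptidase CPA4 at 0.63. Their log2 differences were 1.70 (SE 0.33) for VCAN, 1.94 (SE 0.29) for XRCC4 and 1.63 (SE 0.24) for CPA4. The medians of their runs differed by 1.11 (SE 0.20) for SGK1, 1.20 (SE 0.48) for VCAN, 1.93 (SE 0.52) for XRCC4 and 1.55 (SE 0.36) for CPA4. The run of XRCC4 lay above that of BIRC3 at 1.81 (SE 0.18), but by less than either SE. CPA4 shared with BIRC3 the highest array in both groups, replicate 2, and the lowest, replicate 3 in the controls and replicate 1 in shERRα. VCAN also had replicate 2 highest and replicate 3 lowest in the controls. The distance includes the control arrays, so a shared order is partly what it selects. All 5 were listed for being higher on these arrays, as were 25 of the 119, so nearness to BIRC3 partly restates that choice.

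**Figure D5:**
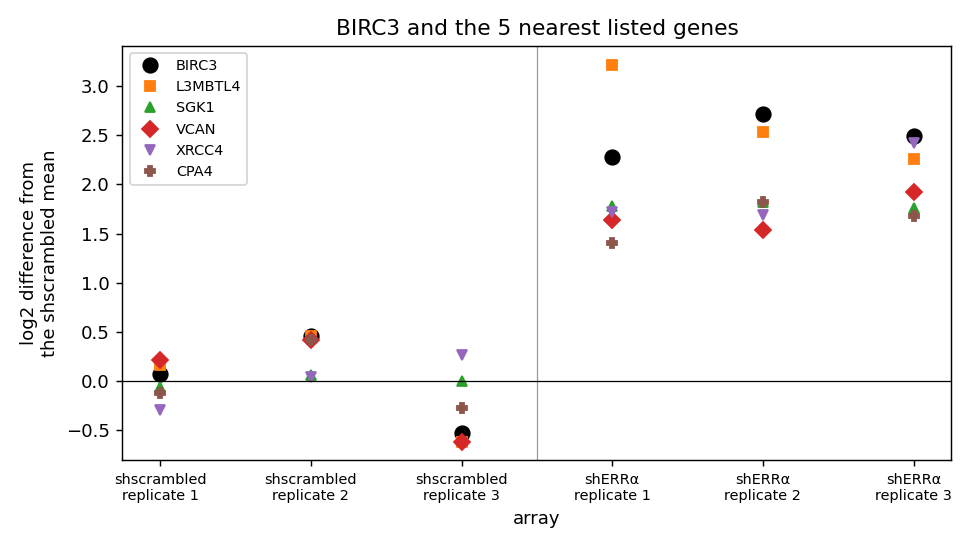
Log2 difference of the listed median from the mean of the shscrambled arrays (vertical axis) on each array (horizontal axis) for BIRC3 (black) and the 5 nearest genes. On the shERRα arrays BIRC3 lies at 2.28, 2.72 and 2.49, and SGK1 between 1.76 and 1.82.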

How the data were processed

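The deposited value table holds, in place of log2 values, whole-number scores without a decimal mark, 1 per probe set and array, which the authors computed by RMA (per the submitters' processing notes); its version, the annotation and the build are not stated in the labels or headers. The mark was put back: strings of 7 digits were read with 2 digits before it. The 73521 values (4.76%) that could be read either way took the reading nearer to the other arrays, except in 61 probe sets. In those 61 every value could be read either way, and all were read as low. Readings too close to decide were settled by the deposited fold change for 12 listed probe sets, none of them in the run of BIRC3, and 1250 of 257430 probe sets that stayed undecided were left out. In the run of BIRC3, 2 values, both of probe set 7943414, could be read either way and took the low reading, the nearer one. The reading gave all 2122 deposited fold changes (a ratio of shERRα over shscrambled, per the file headers) to 0.001 on the log2 scale and each of the 2122 deposited p-values to 1%; for those 12 the agreement in fold is by construction.

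Differences of group means and their SE come from lmFit of limma 3.58.1 (R 4.3.3), and its eBayes test ran over all probe sets. A missing identifier ends a run. Of the listed probe sets, 1948 were named by accession in RefSeq (GRCh38.p14) and 103 by current symbol. Another 27 were named by an older symbol and 44 kept the name the authors gave. The steps that read the values and fit the differences were also run on simulated arrays. Their noise was independent between probe sets, and run medians were not part of that test. BIRC3, the gene lists and the rules were chosen with earlier results of these data known. Named genes are BIRC3, listed members of the 7 lists and of the marker lists, and the 5 nearest genes; ESRRA, as the target, and the unlisted members given as examples were added.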

Additional observations from a re-analysis of the deposited data

How the results depend on the processing

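For BIRC3 the median of the named probe sets differed by 2.23 to 2.73 log2 units and the run median by 1.71 to 1.94 when 1 array was left out. With a replicate block these were 2.50 (SE 0.26) and 1.81 (SE 0.17), and 4 of the 6 named probe sets passed the rule. The labels do not pair same-numbered arrays, and the correlations of their deviations from the group means were only 0.048 to 0.084. Although 6 of 6 arrays correlated best with their own number, these matches share the same correlations and are not 6 independent results. Whether same-numbered arrays belong together was not tested. The run median was 2.74 over its 5 probe sets at or above the median level. These 5 were all named ones, so chosen for the difference, and the level was averaged over both groups. Probe set 7943418, with a control mean of 3.99 against a cut of 4.29, passed only through its shERRα mean of 6.88. Without values of ambiguous reading the run median was 2.27. That left out 2 low values of probe set 7943414, 1.06 on shscrambled replicate 3 and 1.13 on shERRα replicate 1. On the latter array the run had no value between 3.62 and 6.58, so dropping 1 value could move its median far. The 10 single probe sets kept their direction in 8 alternatives each. The rule gave 695 higher and 1427 lower probe sets. Without single arrays it gave 513 to 906 higher and 775 to 1705 lower, with 775 lower without shscrambled replicate 2 and 909 without shscrambled replicate 1. It gave 392 and 675 with the replicate block and 270 and 854 at or above the median level, where fewer probe sets are tested; limma with an adjusted p under 0.05 gave 0 and 0. The cause of the other shifts was not tested. The 3 arrays a group limit all values.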
